A study of Mus musculus with 9 samples.

Results

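The genes described here encode the enzyme families that conjugate, reduce, oxidise or hydrolyse reactive chemicals, grouped here as phase II detoxification enzymes, measured in mouse ear skin. They were chosen by gene symbol alone: every probe set annotated to 1 gene whose symbol starts with Gsta, Gstm, Gstp, Gstt, Gsto, Gstk, Gstz, Mgst, Ugt, Sult, Akr1, Aldh, Cbr or Ephx. This gave 128 probe sets for 89 genes in 14 families, out of 34945 probe sets for 18193 genes. Of the 89 genes, 61 had signal high enough to be tested and 28 did not. The study placed compounds on the ears of C57BL/6 mice and took ear skin RNA after 6 h. There were 3 groups of 3 arrays: DNFB (a chemical allergen, dinitrofluorobenzene), BAC (a skin irritant, benzalkonium chloride) and the vehicle, a mix of acetone and olive oil. Per the labels the compounds were put on right ears and the vehicle on left ears, so the side of the ear cannot be told apart from treatment. The sources used here name no dose, sex or age, so DNFB and BAC cannot be matched by dose, and no genetic change is named for any group. The labels number the replicates without saying that each is a separate animal or whether compound and vehicle ears came from the same mice, which would pair their arrays. The p-values therefore measure only the spread between these arrays, which may be technical.

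Glutathione S-transferases (GSTs) join the thiol of glutathione to electrophiles, UDP-glucuronosyltransferases (UGTs) attach glucuronic acid, and sulfotransferases (SULTs) attach sulfate. Aldo-keto reductases and carbonyl reductases reduce aldehydes and ketones, aldehyde dehydrogenases oxidise aldehydes to acids, and epoxide hydrolases open epoxides. DNFB is itself an electrophile that binds protein thiols and amines, and dinitrohalobenzenes are classical GST substrates, whereas BAC is a mixture of cationic detergents. Some genes of these families are known to carry antioxidant response elements, which the transcription factor NRF2 binds, or elements bound by the aryl hydrocarbon receptor (AHR).

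Promoters of called members that rose or fell after DNFB are shown where RefSeq lists one, so that these elements can be looked for beside the values below. Each runs from 250 bases before to 50 after the RefSeq start of the gene (GRCm38.p6), 5′ to 3′ on the gene's strand. They are Gstp1 (chr19:4037863-4038162, minus strand), Gsta3 (chr1:21240335-21240634, plus strand), Akr1b8 (chr6:34353896-34354195, plus strand), Ephx3 (chr17:32189421-32189720, minus strand) and Sult2b1 (chr7:45759563-45759862, minus strand, the most upstream of 2 listed starts). Gsta4 and Aldh3b2 were called too. Capitals mark matches to TGACNNNGC, the core of an antioxidant response element, to its variant TGAGNNNGC, or to GCGTG, the core of an AHR element, each searched on both strands.
Gstp1: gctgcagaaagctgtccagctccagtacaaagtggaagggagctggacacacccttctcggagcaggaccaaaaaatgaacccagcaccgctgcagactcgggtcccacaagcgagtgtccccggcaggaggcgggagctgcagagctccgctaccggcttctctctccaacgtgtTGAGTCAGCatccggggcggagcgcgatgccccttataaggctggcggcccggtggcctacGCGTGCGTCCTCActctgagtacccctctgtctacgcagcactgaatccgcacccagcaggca
Gsta3: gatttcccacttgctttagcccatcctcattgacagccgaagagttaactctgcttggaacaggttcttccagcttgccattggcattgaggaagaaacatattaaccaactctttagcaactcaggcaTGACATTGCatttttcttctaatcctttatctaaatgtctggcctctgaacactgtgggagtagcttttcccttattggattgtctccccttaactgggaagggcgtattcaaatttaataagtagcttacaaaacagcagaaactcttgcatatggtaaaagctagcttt
Akr1b8: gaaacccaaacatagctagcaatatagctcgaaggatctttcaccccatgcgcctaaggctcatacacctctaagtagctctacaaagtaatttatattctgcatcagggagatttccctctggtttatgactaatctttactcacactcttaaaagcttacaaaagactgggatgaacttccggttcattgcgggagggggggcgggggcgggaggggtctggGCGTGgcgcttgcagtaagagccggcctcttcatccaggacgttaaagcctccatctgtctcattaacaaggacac
Ephx3: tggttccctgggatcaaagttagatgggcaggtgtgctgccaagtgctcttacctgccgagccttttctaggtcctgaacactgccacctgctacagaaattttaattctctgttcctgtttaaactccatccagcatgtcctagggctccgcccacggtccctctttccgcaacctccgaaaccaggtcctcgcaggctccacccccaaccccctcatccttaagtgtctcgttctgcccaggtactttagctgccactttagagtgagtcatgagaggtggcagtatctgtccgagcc
Sult2b1: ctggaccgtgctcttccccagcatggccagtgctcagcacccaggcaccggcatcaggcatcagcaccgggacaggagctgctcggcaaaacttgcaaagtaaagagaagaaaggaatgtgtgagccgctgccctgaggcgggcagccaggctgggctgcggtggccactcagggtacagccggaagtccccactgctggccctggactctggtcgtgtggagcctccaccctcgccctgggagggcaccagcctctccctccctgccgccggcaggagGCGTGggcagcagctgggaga

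Gstp1 held TGAGTCAGC at positions -74 to -66 from its start, on the gene's strand. It also held TGAGGACGC on the other strand at -9 to -1, printed as GCGTCCTCA, which shares 1 base with a GCGTG at -13 to -9. Gsta3 held TGACATTGC at -121 to -113. Akr1b8 held GCGTG at -26 to -22 and Sult2b1 held it at 30 to 34, past the start. Ephx3 matched none of these letters in this window. TGACNNNGC occurred in 12.4% of all 32851 listed promoters and in 9.52% of 63 promoters of tested members. GCGTG occurred in 32.4% of all promoters and 28.6% of the members', and TGAGNNNGC, a pattern added after the sequences were seen, in 17.6% and 17.5%. A match is a run of letters and does not show binding.

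Each array gave 1 MAS5 signal per probe set, on a linear scale where the trimmed mean of every array was 250.001. Over all probe sets other than controls, r was 0.935 to 0.966 between arrays of one group and 0.925 to 0.948 between arrays of different groups. The ratio of 3′ to 5′ Gapdh signal, a measure of RNA integrity, was 0.841, 1.36 and 0.943 in DNFB replicates 1 to 3, between 0.917 and 0.932 in BAC arrays and between 0.856 and 0.880 in vehicle arrays, so DNFB replicate 2 stood apart. Values below are signals, or log2 changes on the log2(signal + 16) scale with their standard error (SE) from limma. That scale understates the change of dim genes. A gene was called changed at a limma adjusted p under 0.05, adjusted over all 14122 genes tested. The RNA came from whole ear skin, so fewer cells of a type and less RNA per cell cannot be told apart in any of these signals.

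The comparison of DNFB with vehicle asks how the families responded to the allergen. Of the 61 tested members 4 rose, which is 6.56% beside 6.76% of all genes tested. They were Gstp1, Gsta4, Gsta3 and Akr1b8, of which 3 are GSTs. Another 3 members fell, 4.92% beside 7.08% of all genes: Ephx3, Sult2b1 and Aldh3b2. The share of called members was thus near the background in the upward direction. In the downward direction it rested on only 3 genes, too few to set it apart from the background. At an unadjusted limma p under 0.05 there were 19 members (31.1% beside 26.3% of all genes).

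Gstp1 (Entrez gene 14870, chromosome 19), the pi-class GST, had signals of 5270, 5222 and 5086 in DNFB arrays, 2594, 2403 and 2534 in BAC arrays, and 2716, 2771 and 2438 in vehicle arrays. All 3 DNFB arrays lay well above the other 6, and the BAC and vehicle arrays overlapped. Mean signal was 1.97 times as high with DNFB as with vehicle, a log2 change of 0.97 ± 0.09 (limma adjusted p = 4.98e-06). Without any 1 array the change lay between 0.92 and 1.01. Gstp1 has near-identical copies in the mouse genome, so its probe set may also have read a relative.

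**Figure D1:**
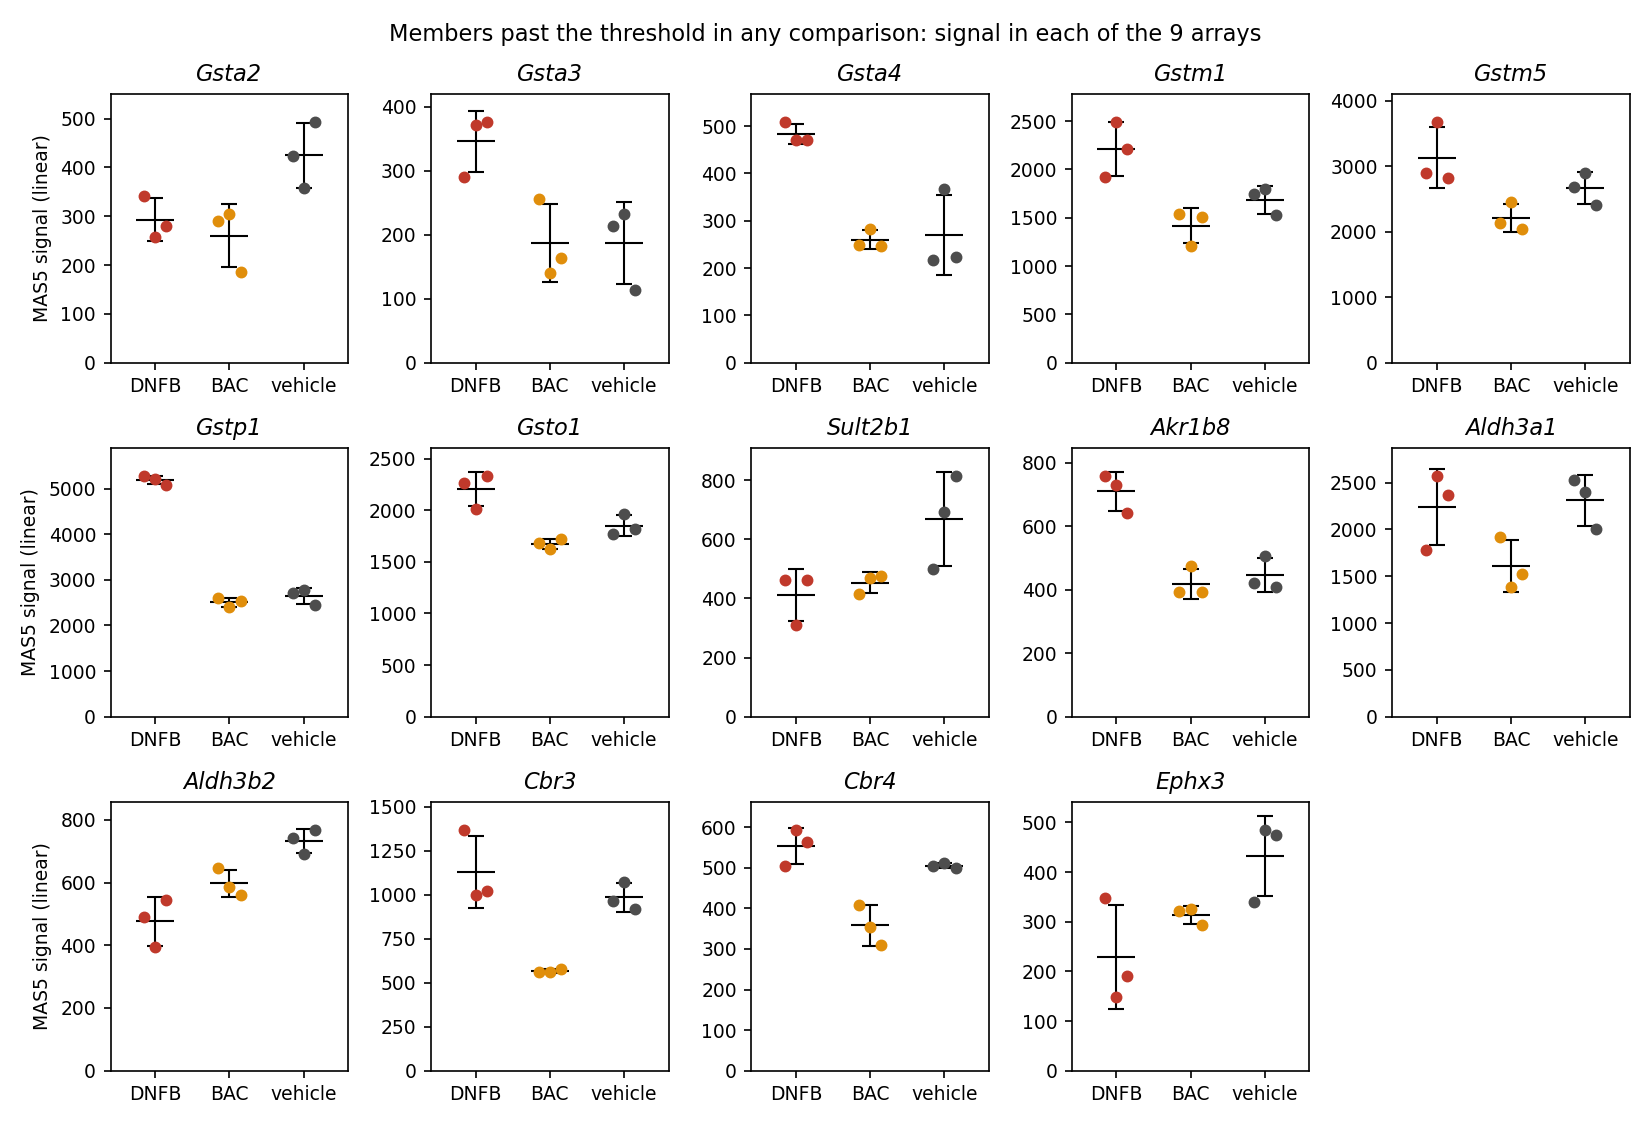
Signal of the called members in every array (linear MAS5 signal, each panel with its own axis from 0), with DNFB, BAC and vehicle from left to right. Points are the 3 arrays of a group, and lines with whiskers are group means ± SD. The DNFB points of Gstp1 sit between 5086 and 5270, above all BAC and vehicle points.

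The alpha-class GSTs did not move together. Gsta4 (Entrez gene 14860, chromosome 9), whose product conjugates 4-hydroxynonenal and other products of lipid peroxidation, had signals of 507.9, 471 and 470.1 in DNFB arrays, 249.6, 283.3 and 246.5 in BAC arrays, and 216.4, 366.3 and 223.6 in vehicle arrays. Every DNFB array exceeded every other array, although vehicle replicate 2 stood above the other vehicle arrays. Its log2 change was 0.85 ± 0.18 (limma adjusted p = 0.00476). Gsta3 (Entrez gene 14859, chromosome 1), which conjugates aflatoxin epoxide in mouse, had signals of 290.1, 371.6 and 375.5 in DNFB arrays, 256.1, 140.4 and 163.6 in BAC arrays, and 214.3, 232.2 and 114.3 in vehicle arrays. The DNFB arrays again lay above all others, with a log2 change of 0.88 ± 0.25 (limma adjusted p = 0.0288). This call was lost without DNFB replicate 2, DNFB replicate 3 or vehicle replicate 3, where limma adjusted p was 0.096, 0.0944 and 0.14. A second Gsta3 probe set changed by 0.17 (limma adjusted p = 0.811 with every probe set tested), and the mean of both gave 0.52 (limma adjusted p = 0.0919). Gsta2 (Entrez gene 14858, chromosome 9) had signals of 342.2, 257.2 and 280.4 in DNFB arrays, 290, 304.8 and 186.6 in BAC arrays, and 422.6, 358.8 and 492.3 in vehicle arrays. Both treated groups lay below every vehicle array. The DNFB difference of -0.51 ± 0.19 did not pass (limma adjusted p = 0.0933). Alpha-class genes are close in sequence, so a probe set may read more than 1 of them.

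Akr1b8 (Entrez gene 14187, chromosome 6), an aldose reductase relative that reduces reactive aldehydes, was the only 1 of 9 tested aldo-keto reductases called after DNFB. Its signals were 757.7, 730.1 and 642.3 in DNFB arrays, 391.9, 473.9 and 392.2 in BAC arrays, and 421.1, 506.5 and 409 in vehicle arrays. DNFB arrays did not overlap with either other group, and the log2 change was 0.66 ± 0.14 (limma adjusted p = 0.00407). The calls of Gstp1, Gsta4 and Akr1b8 against vehicle held in each of the 6 fits that left out 1 array.

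The 3 falling genes came from 3 families. Ephx3 (Entrez gene 71932, chromosome 17), an epoxide hydrolase that acts on fatty acid epoxides and takes part in making the skin's ceramide barrier, had signals of 348.6, 149 and 190.2 in DNFB arrays, 320.8, 325.4 and 292.6 in BAC arrays, and 339.3, 484.1 and 473.8 in vehicle arrays. DNFB replicate 1 lay within the vehicle range, so the groups overlapped. The log2 change was -0.94 ± 0.23 (limma adjusted p = 0.014). Sult2b1 (Entrez gene 54200, chromosome 7), which makes cholesterol sulfate in epidermis, had signals of 461.5, 310.5 and 460.6 in DNFB arrays, 413.3, 468.9 and 477.2 in BAC arrays, and 500.7, 692.3 and 812.9 in vehicle arrays. All DNFB and BAC arrays lay below the lowest vehicle array, and the DNFB log2 change was -0.68 ± 0.18 (limma adjusted p = 0.0219). Aldh3b2 (Entrez gene 621603, chromosome 19), a fatty aldehyde dehydrogenase associated with lipid droplets in mouse, had signals of 490.6, 393.2 and 544.8 in DNFB arrays, 645.5, 587.6 and 559.8 in BAC arrays, and 743, 692.6 and 767 in vehicle arrays. The 3 groups did not overlap, with DNFB lowest and vehicle highest, and the DNFB change of -0.62 ± 0.13 passed (limma adjusted p = 0.00573) in every fit without 1 array. Ephx3 lost its call without DNFB replicate 2, DNFB replicate 3 or vehicle replicate 3, and Sult2b1 without DNFB replicate 2, vehicle replicate 2 or vehicle replicate 3, so the count of falling members was 1 without DNFB replicate 2 or without vehicle replicate 3. Without the intensity trend Ephx3, Sult2b1 and the rising Gsta3 also lost their calls (limma adjusted p = 0.0721, 0.0879 and 0.0974).

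Cell type markers changed in the same arrays, and no listed marker had a signal of 0. Beside the counts below, 6.76% of all genes tested rose and 7.08% fell after DNFB. After BAC 6.59% rose and 7.64% fell. All 14 measured epidermal keratinocyte markers passed the signal filter. Of these 14 markers 8 fell after DNFB and 7 after BAC, and none rose in either. Their summed signal was 106953 to 124583 in DNFB arrays, 111197 to 117128 in BAC arrays and 121464 to 139305 in vehicle arrays. Of 12 sebaceous gland markers 6 fell and 1 rose after DNFB, and 2 fell and 1 rose after BAC. Their summed signal overlapped between groups, at 41168.9 to 49363 in DNFB arrays, 44401.1 to 45379 in BAC arrays and 42490.8 to 49302.9 in vehicle arrays. Of 12 tested neutrophil markers 8 rose after DNFB and 10 after BAC, and of 17 skeletal muscle markers 8 rose after DNFB and 0 after BAC. Of 9 mast cell markers 5 rose after DNFB and 2 after BAC, and of 11 macrophage markers 4 rose after DNFB and 3 after BAC. Fibroblast, adipocyte, endothelial, cartilage and melanocyte markers had between 0 and 3 rises and no falls against vehicle. The part of these cell types in the changes of Ephx3, Sult2b1, Aldh3b2 or any other member was not tested.

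The comparison of BAC with vehicle asks the same of the irritant. No member rose, beside 6.59% of all genes, and 4 fell, which is 6.56% beside 7.64% of all genes. The falling genes were the carbonyl reductases Cbr3 and Cbr4, the alpha-class Gsta2 and the aldehyde dehydrogenase Aldh3a1. At an unadjusted limma p under 0.05 there were 8 members (13.1% beside 27.7% of all genes). With arrays centred on their median the split over all genes was 606 higher and 1178 lower, beside 930 higher and 1079 lower as deposited, and Sult2b1 was called lower beside these 4 (-0.61, limma adjusted p = 0.0347). This comparison shares its vehicle arrays with the one of DNFB.

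Cbr3 (Entrez gene 109857, chromosome 16), a cytosolic reductase of quinones and ketones, had signals of 1365, 999.9 and 1018 in DNFB arrays, 560.6, 560 and 579.3 in BAC arrays, and 962.7, 1074 and 916.6 in vehicle arrays. The BAC arrays were tightly grouped and far below all others, while DNFB and vehicle arrays overlapped. Mean signal with BAC was 0.576 times that with vehicle, a log2 change of -0.78 ± 0.13 (limma adjusted p = 0.000837), and this call held without any 1 array. Cbr4 (Entrez gene 234309), a mitochondrial carbonyl reductase that also serves in fatty acid synthesis, had signals of 504.9, 592.5 and 564.6 in DNFB arrays, 408.9, 355.2 and 309.9 in BAC arrays, and 504.3, 512 and 500.1 in vehicle arrays. BAC arrays did not overlap with either group, and the log2 change was -0.49 ± 0.13 (limma adjusted p = 0.0231). Among the other carbonyl reductases, Cbr1, which lies on chromosome 16 like Cbr3, had 747.9, 633.8 and 666.3 in BAC arrays and 822.4, 748 and 701.8 in vehicle arrays, which overlapped. Cbr2, the carbonyl reductase known from mouse lung, likewise overlapped, with 1694, 1529 and 1524 in BAC arrays and 1719, 1824 and 1539 in vehicle arrays. Neither Cbr1 nor Cbr2 was called in any comparison.

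Aldh3a1 (Entrez gene 11670, chromosome 11), an aldehyde dehydrogenase best known from cornea and a classical AHR-inducible gene, had signals of 1782, 2567 and 2364 in DNFB arrays, 1917, 1390 and 1523 in BAC arrays, and 2527, 2404 and 2006 in vehicle arrays. Every BAC array lay below every vehicle array, and the DNFB arrays spread across both ranges. The BAC log2 change was -0.52 ± 0.15 (limma adjusted p = 0.0288), and that of DNFB was -0.06 (limma adjusted p = 0.857). Gsta2, whose signals are given above, changed by -0.69 ± 0.19 with BAC (limma adjusted p = 0.0242). Of the 4 calls only Cbr3 held in all 6 fits that left out 1 array. Cbr4 was called only without BAC replicate 1, Aldh3a1 only without BAC replicate 1 or vehicle replicate 3, and Gsta2 in all but the fits without BAC replicate 3, vehicle replicate 1 or vehicle replicate 3. The count of falling members was 1 without BAC replicate 3 and 2 without BAC replicate 2 or any vehicle array. Without vehicle replicate 1 these 2 were Cbr3 and Sult2b1, which gained a call there (-0.71, limma adjusted p = 0.0238). Of the genes that rose with DNFB, Gstp1 differed by -0.07 with BAC (limma adjusted p = 0.667) and Gsta4 by -0.01, with a 95% interval of -0.39 to 0.37. No rise of Gsta4 was called with BAC, though that interval does not show that the signal stayed the same.

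**Figure D2:**
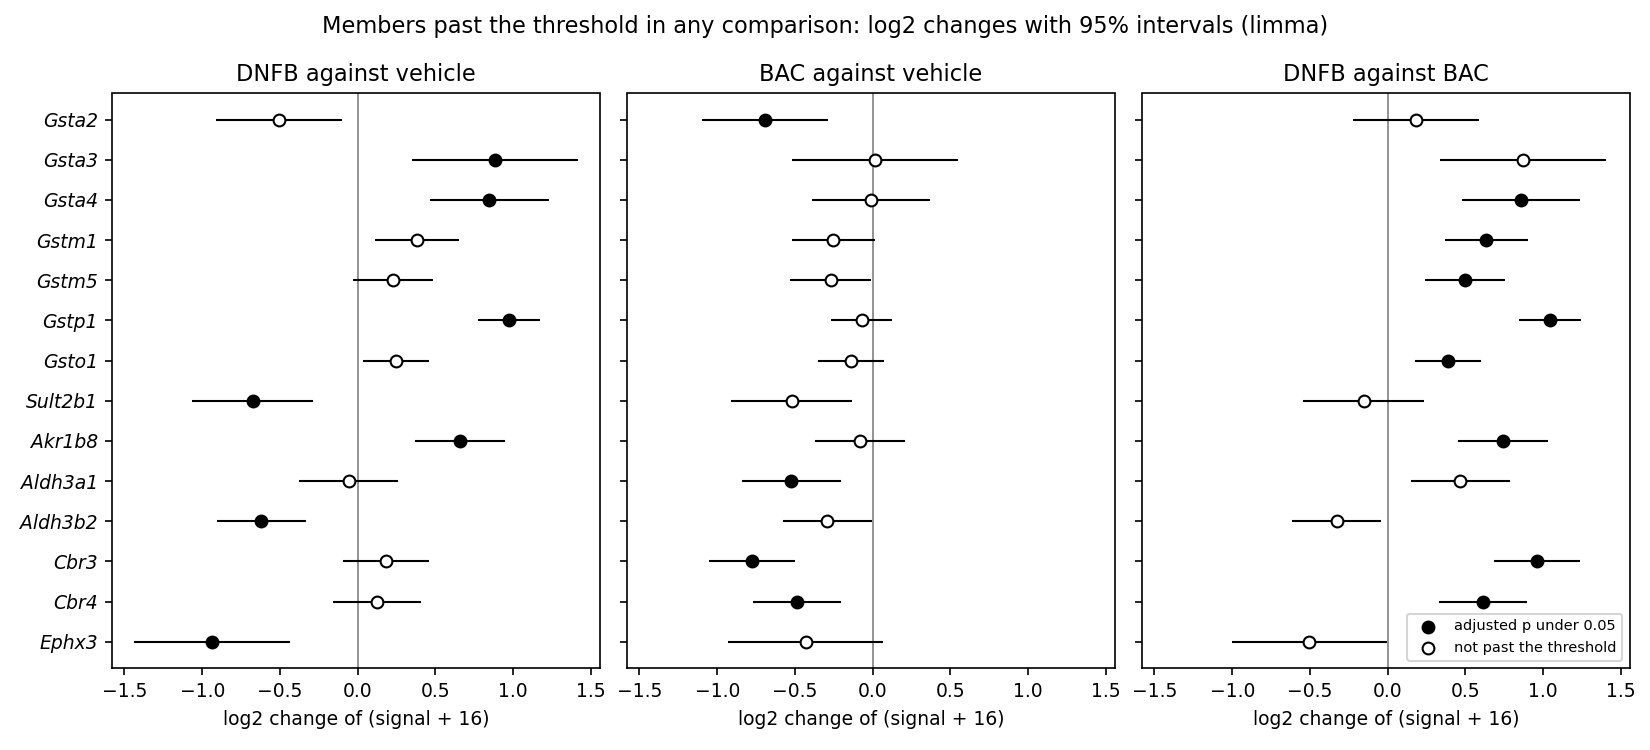
Log2 changes (log2(signal + 16) scale) of members past the threshold in any comparison, with 95% intervals from limma, for DNFB against vehicle, BAC against vehicle and DNFB against BAC. Filled points passed the threshold; Gstp1 lies at 0.97, -0.07 and 1.04 in these comparisons.

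Setting DNFB directly against BAC asks which members separate the allergen from the irritant. Here 8 of 61 members were higher with DNFB, 13.1% beside 3.14% of all genes tested, and none was lower, beside 3.66%. They were Gstp1, Gsta4, Gstm1, Gstm5 and Gsto1 among the GSTs, Akr1b8, and the reductases Cbr3 and Cbr4. At an unadjusted limma p under 0.05 there were 18 members (29.5% beside 21.6% of all genes). Of the 8 called, Gstp1, Gsta4 and Akr1b8 were also called higher with DNFB than with vehicle. Cbr3 and Cbr4 were also called lower with BAC than with vehicle. Gstm1, Gstm5 and Gsto1 were called in neither comparison with vehicle, although another Gstm1 probe set was lower with BAC, as given below. Gstp1 differed by 1.04 ± 0.09 (limma adjusted p = 5.87e-06), and Cbr3 by 0.96 ± 0.13 (limma adjusted p = 0.000277).

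The mu-class genes lie side by side on chromosome 3, and their products conjugate many aromatic and epoxide substrates. Gstm1 (Entrez gene 14862) had signals of 1926, 2488 and 2214 in DNFB arrays, 1535, 1212 and 1508 in BAC arrays, and 1744, 1795 and 1524 in vehicle arrays. DNFB arrays lay above every BAC and vehicle array, and BAC and vehicle arrays overlapped. The DNFB against BAC difference was 0.63 ± 0.13 (limma adjusted p = 0.00647), whereas against vehicle neither DNFB (0.38, limma adjusted p = 0.0574) nor BAC (-0.25, limma adjusted p = 0.208) passed. Gstm5 (Entrez gene 14866) had signals of 2900, 3669 and 2824 in DNFB arrays, 2129, 2447 and 2038 in BAC arrays, and 2681, 2897 and 2411 in vehicle arrays. DNFB and BAC arrays did not overlap, and their difference was 0.50 ± 0.12 (limma adjusted p = 0.022). The other Gstm1 probe sets differed by 0.68, 0.48 and 0.06, of which only the first passed when every probe set was tested (limma adjusted p = 0.005, 0.0541 and 0.915), where 1.95% of all probe sets passed as higher. That first probe set had mean signals of 1801 in DNFB, 1118 in BAC and 1511 in vehicle arrays. In the same fit it was lower after BAC (-0.43, limma adjusted p = 0.0385), beside 6.02% of all probe sets of 1 gene. After DNFB it did not pass (0.25, limma adjusted p = 0.24). No other Gstm1 probe set passed after BAC, including the one that represents the gene. Of the 7 tested mu-class genes only Gstm1 and Gstm5 were called in any comparison. Gstm2, for example, differed by 0.18 between DNFB and BAC (limma adjusted p = 0.37). Near-identical mu-class copies make the split of signal between them uncertain.

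Gsto1 (Entrez gene 14873, chromosome 19), an omega-class enzyme that reduces dehydroascorbate and methylated arsenic, had signals of 2264, 2015 and 2329 in DNFB arrays, 1685, 1623 and 1718 in BAC arrays, and 1770, 1965 and 1819 in vehicle arrays. All 3 DNFB arrays lay above the others, and the difference from BAC was 0.39 ± 0.10 (limma adjusted p = 0.0288). A second Gsto1 probe set differed by 0.13 (limma adjusted p = 0.723 with every probe set tested), and the mean of both by 0.26 (limma adjusted p = 0.24). The Gsto1 call was also lost with quantile normalization (limma adjusted p = 0.0504) and with arrays centred on the median (limma adjusted p = 0.0632). Without 1 array the count of higher members lay between 6 and 9. Gsto1 kept its call in 1 of 6 such fits, Gstm5 was lost without DNFB replicate 2, BAC replicate 1 or BAC replicate 3, and Cbr4 was lost without BAC replicate 3. Gstp1, Gsta4, Gstm1, Akr1b8 and Cbr3 kept theirs in all 6. Without DNFB replicate 1, Ephx3 was called lower with DNFB than with BAC, and Aldh1a1 and Aldh3a1 were called higher. Gsta3 and Aldh3a1 were called higher without BAC replicate 1, and Mgst3 without BAC replicate 3.

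**Figure D3:**
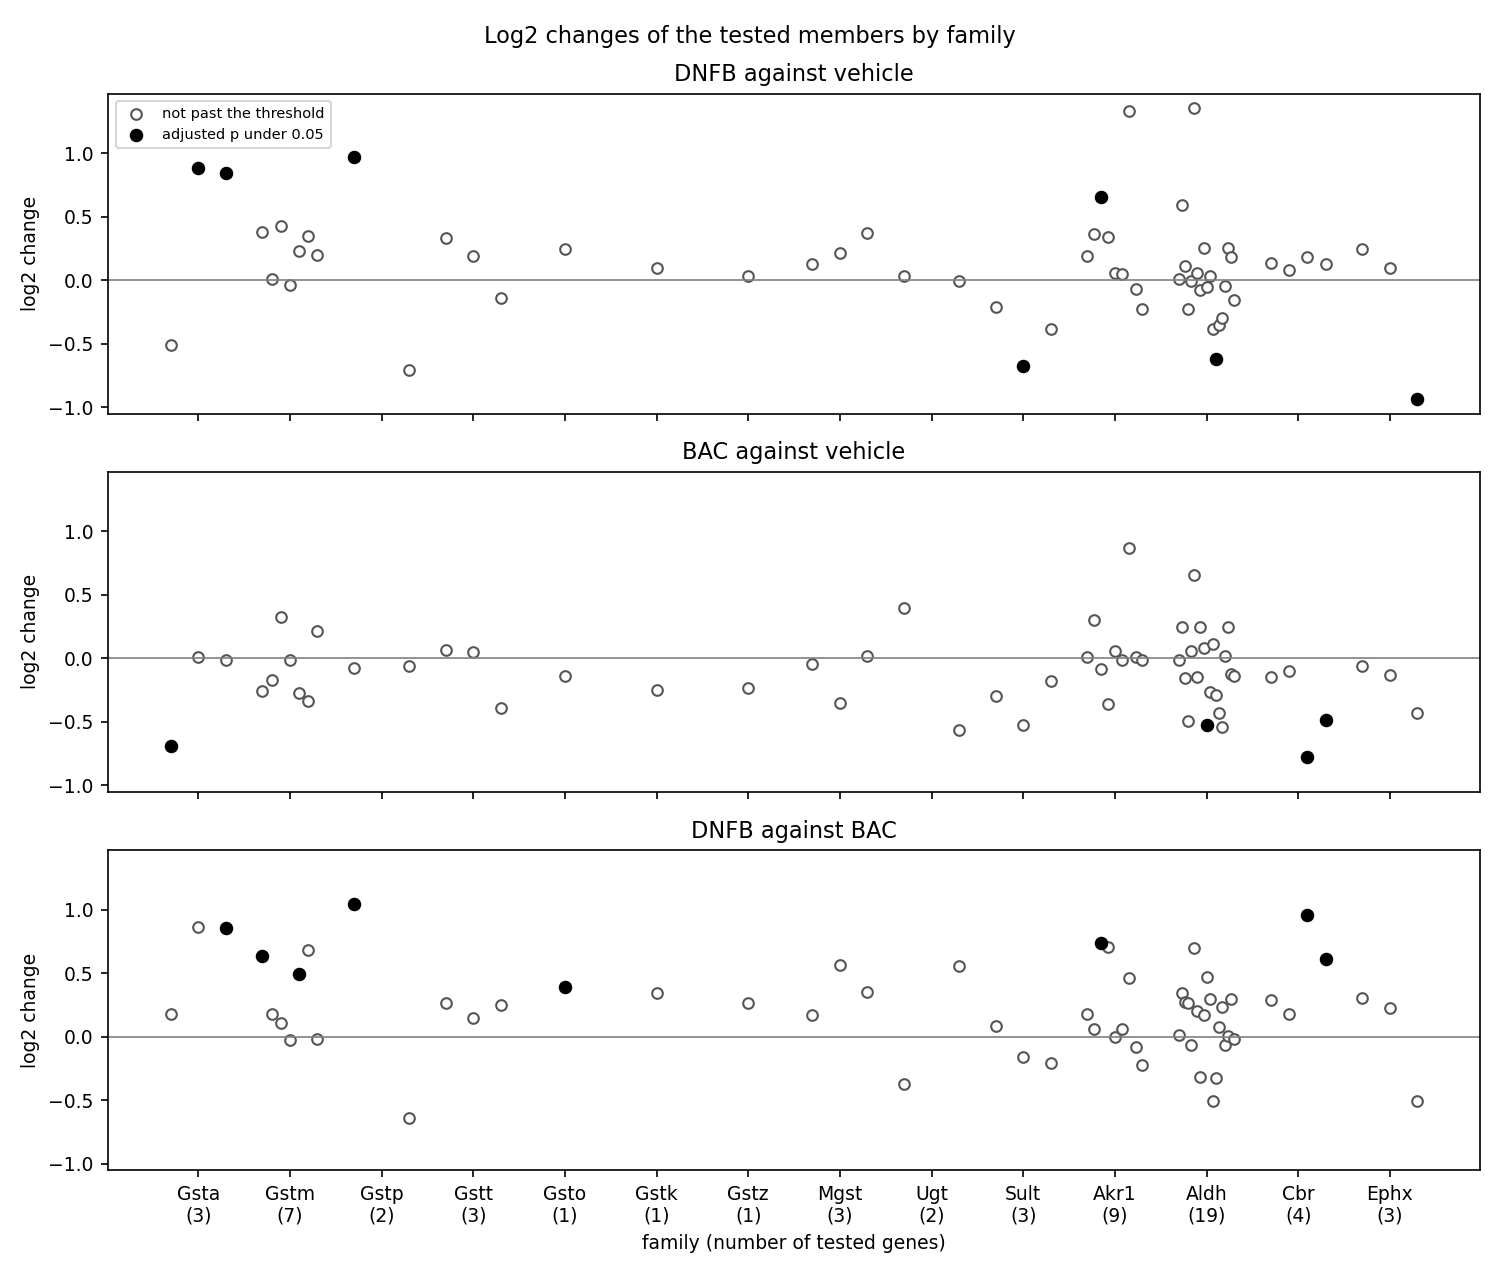
Log2 change of every tested member by family, with 1 panel per comparison and 1 point per gene; filled points passed the limma threshold. Most points of DNFB against BAC lie above 0 (45 of 61), and 20 of 61 points of BAC against vehicle do.

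Shifts that did not reach the threshold in single genes were counted over the families. After DNFB, 40 of 61 members (65.6%) had a positive log2 change, beside 50.3% of all genes, and the median change was 0.10 beside 0.00. After BAC 20 of 61 were positive (32.8% beside 46.6%), with a median of -0.10 beside -0.03. For DNFB against BAC 45 of 61 were positive (73.8% beside 53.3%), with a median of 0.20 beside 0.03. Members whose 3 arrays all lay on one side of the other group's 3 were counted next. In DNFB against vehicle 16 were higher (26.2% beside 15.2% of all genes) and 4 lower (6.56% beside 15.6%). In BAC against vehicle 1 was higher (1.64% beside 14.9%) and 14 lower (23% beside 19.2%). In DNFB against BAC 23 were higher (37.7% beside 13.7%) and 2 lower (3.28% beside 11.4%). With arrays centred on the median the higher count in DNFB against vehicle was 10 (16.4% beside 11.7%), a setting chosen for these counts after the data were seen. These counts describe the families and carry no test, since members share pathways and sequence.

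**Figure D4:**
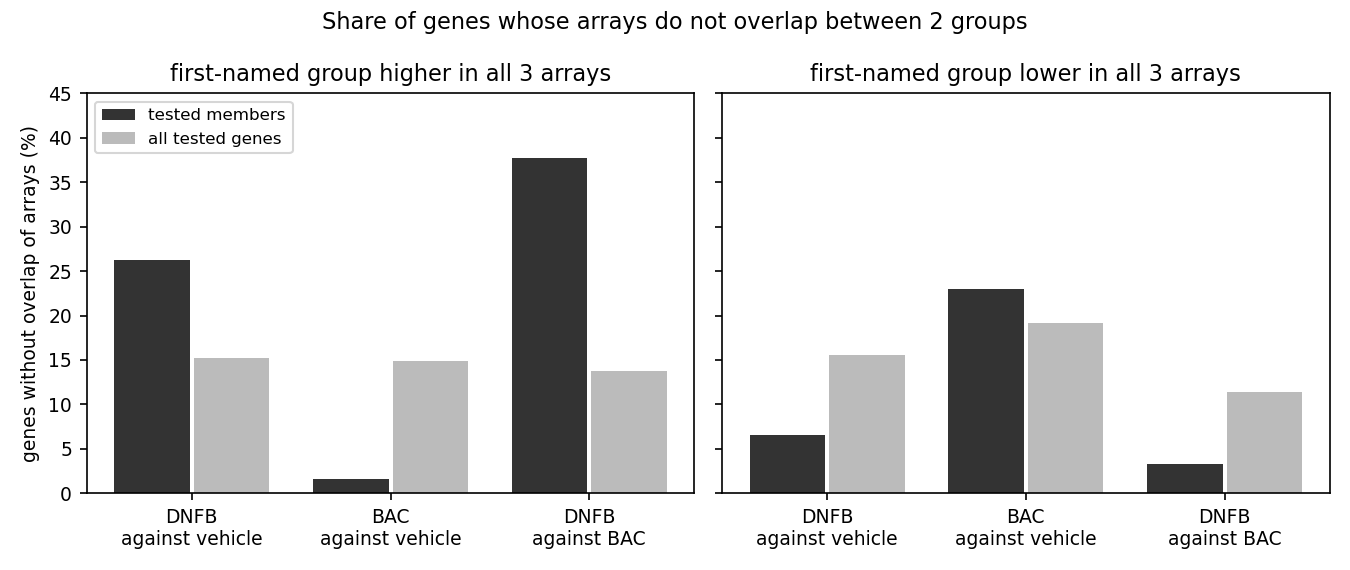
Share of tested members and of all tested genes (percent, from 0) whose arrays did not overlap between groups, by direction and comparison. Higher members in DNFB against BAC make up 37.7%, beside 13.7% of all genes.

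Among the remaining conjugating enzymes most differences were small. Mgst1, a membrane-bound GST and peroxidase, had signals of 8159, 9090 and 8029 in DNFB arrays, 7308, 6774 and 8406 in BAC arrays, and 8442, 7734 and 6982 in vehicle arrays. The groups overlapped, and DNFB differed from vehicle by 0.13 (limma adjusted p = 0.509), or by -0.042 after quantile normalization. Mgst3, a microsomal GST of leukotriene C4 and peroxide metabolism, had 1394, 1506 and 1539 in DNFB arrays, 1026, 1074 and 1397 in BAC arrays, and 1052, 1230 and 1137 in vehicle arrays. Its DNFB arrays lay above the vehicle arrays, with a difference of 0.37 that did not pass (limma adjusted p = 0.0612). Averaging the Mgst3 probe sets gave 0.86 (limma adjusted p = 0.0144). The second Mgst3 probe set was too dim to be tested by itself. It exceeded the array's 40th percentile in 2 DNFB, 0 BAC and 0 vehicle arrays, so the average rests partly on signals near background. The theta-class Gstt1 (0.33, limma adjusted p = 0.126) showed no called difference after DNFB. Nor did Gstk1, the mitochondrial and peroxisomal kappa-class GST, after BAC (-0.25, limma adjusted p = 0.205). Gstz1, which takes part in tyrosine breakdown, differed by -0.23 after BAC (limma adjusted p = 0.332). Gstp3, a second pi-class gene, had dim signals of 29.67, 96.48 and 128.4 in DNFB arrays and 122.2, 170.5 and 108.4 in vehicle arrays, which overlapped, and it was not called.

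Most glucuronosyl- and sulfotransferases lay below the signal needed for a test. Of 11 UGT genes 9, and of 13 SULT genes 10, were not tested. Ugt8a, which makes the galactolipid cerebroside, had 83.09, 94.71 and 97.01 in DNFB arrays, 62.56, 56.71 and 52.13 in BAC arrays, and 87.64, 82.88 and 106.8 in vehicle arrays. All BAC arrays were lower than the rest, and only 1 of them exceeded the array's 40th percentile; the difference from vehicle of -0.56 did not pass (limma adjusted p = 0.175). Sult1a1, a phenol sulfotransferase, differed by -0.29 after BAC (limma adjusted p = 0.292), and Sult5a1 by -0.38 after DNFB (limma adjusted p = 0.0933). Besides the members, 3 probe sets are annotated to several UGT1A genes, the bilirubin and phenol glucuronosyltransferases, and cannot tell them apart. Their signals were 1622, 1625 and 1998 in DNFB arrays, 2384, 2114 and 2039 in BAC arrays, and 2564, 2628 and 2614 in vehicle arrays for the first. The second had 5556, 5092 and 5138 in DNFB arrays, 5997, 5253 and 5260 in BAC arrays, and 6389, 6418 and 6720 in vehicle arrays. The last had 836.3, 951.1 and 868.9 in DNFB arrays, 1112, 1145 and 915.8 in BAC arrays, and 1533, 1254 and 1477 in vehicle arrays. In all 3 every DNFB and BAC array lay below every vehicle array. In a fit of all probe sets other than controls they fell by 0.58, 0.31 and 0.67 after DNFB (limma adjusted p = 0.00307, 0.0474 and 0.00255), beside 5.81% of all probe sets that fell. After BAC the differences were -0.26, -0.24 and -0.42, of which the last passed (limma adjusted p = 0.164, 0.116 and 0.043), beside 5.25%. The 3 share transcripts and are not independent. In the same fit, a probe set of both Aldh3b2 and Aldh3b3 differed by -0.01 after DNFB and 0.60 after BAC. It was dim, above the array's 40th percentile in 0 DNFB, 2 BAC and 1 vehicle arrays. A probe set of both Akr1c12 and Akr1c13 differed by -0.37 and -0.16. Neither passed in any comparison. The remaining genes without a test were 5 aldo-keto reductases and 1 each of the Gstt, Gsto, Aldh and Ephx families. Across all 28, signals lay between 0.661 and 84.7.

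Among aldo-keto reductases and aldehyde dehydrogenases, a pair of dim genes had the largest differences after DNFB without passing. Akr1cl had signals of 100.7, 80.47 and 85.96 in DNFB arrays, 80.84, 85.05 and 29.02 in BAC arrays, and 10.12, 50.36 and 25.52 in vehicle arrays. Aldh1b1, a mitochondrial acetaldehyde and retinaldehyde dehydrogenase, had 81.04, 73.98 and 64.69 in DNFB arrays, 57.8, 42.92 and 21.71 in BAC arrays, and 5.731, 18.9 and 39.52 in vehicle arrays. In both genes every DNFB array lay above every vehicle array. Akr1cl exceeded the array's 40th percentile in 3 DNFB, 2 BAC and 1 vehicle arrays and Aldh1b1 in 3 DNFB, 1 BAC and 0 vehicle arrays, so both entered the test mainly through DNFB and their vehicle signals cannot be told from background. Akr1cl differed by 1.33 ± 0.43 (limma adjusted p = 0.0524) and Aldh1b1 by 1.35 ± 0.47 (limma adjusted p = 0.0694). With a pseudocount of 64 in place of 16 these were 0.74 (limma adjusted p = 0.0467) and 0.70 (limma adjusted p = 0.055), so the size of neither is well fixed. With a pseudocount of 1 Aldh1b1 differed by 2.07 (limma adjusted p = 0.09). At 16 it passed with no signal filter, with the mean of probe sets or without the intensity trend (limma adjusted p = 0.0482, 0.0413 and 0.0466). Aldh1b1 has 1 probe set, and its difference stayed at 1.35 in each of these fits, so only the estimate of spread or the adjustment moved. Akr1a1, the aldehyde reductase of ascorbate synthesis in mouse, had signals of 7684, 7842 and 7585 in DNFB arrays, 6559, 6605 and 7299 in BAC arrays, and 6726, 6937 and 6584 in vehicle arrays. Its DNFB arrays lay above all vehicle arrays, by 0.19 (limma adjusted p = 0.187). Aldh2, the mitochondrial acetaldehyde dehydrogenase, differed by 0.25 after DNFB (limma adjusted p = 0.17), and the mean of its probe sets by -0.088. Aldh1a1, which makes retinoic acid, differed by 0.12 (limma adjusted p = 0.786), and Aldh3a2, the fatty aldehyde dehydrogenase of Sjögren-Larsson syndrome in humans, by -0.27 after BAC (limma adjusted p = 0.239). Akr1c18, a progesterone-metabolising reductase, had 533.3, 600.2 and 874.5 in DNFB arrays and 618, 673 and 611.2 in vehicle arrays, which overlapped. Ephx1, the microsomal epoxide hydrolase of foreign compounds, had 1177, 1292 and 1256 in DNFB arrays, 1044, 952 and 1011 in BAC arrays, and 1088, 1063 and 992 in vehicle arrays. Its DNFB arrays were the highest, with differences of 0.24 from vehicle (limma adjusted p = 0.146) and 0.30 from BAC (limma adjusted p = 0.093).

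Genes that work beside these families were counted from lists. Of all genes tested, 6.76% rose and 7.08% fell after DNFB, and 6.59% rose and 7.64% fell after BAC. Of 21 tested NRF2 targets and regulators outside the families 14 rose after DNFB and none fell, while 5 rose and 2 fell after BAC. Among the 21 are Nfe2l2, which encodes NRF2 itself, and Keap1, which encodes its repressor. Nfe2l2 rose by 0.84 after DNFB and 0.91 after BAC (limma adjusted p = 0.000153 and 7.07e-05). Keap1 was called after neither. The median change of the 21 was 0.73 after DNFB and -0.02 after BAC, and it was 0.59 between DNFB and BAC. Srxn1, sulfiredoxin, changed by 3.44 after DNFB, Osgin1 by 2.87 and Hmox1, heme oxygenase, by 2.71. Gclm, a glutathione synthesis subunit, changed by 1.87 and the quinone reductase Nqo1 by 0.76 after DNFB. After BAC Osgin1 changed most in the list, by 1.73 (limma adjusted p = 4.42e-05). Srxn1 changed by 0.81 and Gclm by -0.54 after BAC, and both passed (limma adjusted p = 0.0168 and 0.0308). Hmox1 (-0.05) and Nqo1 (-0.35) did not pass after BAC. Of 12 genes that supply conjugation cofactors, 5 rose and 1 fell after DNFB and 2 rose and 4 fell after BAC. Gclc, Gclm and Gss stand in both lists. Ugdh, which makes UDP-glucuronic acid, rose by 1.42 after DNFB and 1.09 after BAC, while Gclc, the catalytic subunit of glutathione synthesis, rose by 1.17 after DNFB and fell by 0.68 after BAC. Of 6 tested AHR targets and regulators, 2 rose and 1 fell after DNFB, and 1 rose and 1 fell after BAC. Nqo1 stands in this list as well as among the NRF2 targets. Cyp1a1 fell by 1.45 after DNFB and by 0.68 after BAC, and Tiparp rose by 0.71 after DNFB and 0.996 after BAC. Of 8 tested efflux transporters of conjugates 2 rose and 2 fell after DNFB and 1 rose after BAC. Of 7 other conjugating enzymes and 12 xenobiotic receptors, 1 of each list rose after each compound, and 1 receptor fell after each. The part of any of these genes in the members' changes was not tested.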

How the data were processed

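Ear skin RNA of 9 samples was hybridised to Affymetrix arrays, labelled with the 3' IVT Express kit per the labels' protocols. The authors deposited linear intensities, with 1 value for each probe set on each array. Per the submitters' processing notes the tools were Affymetrix Expression Console and MAS5, for which no setting or version is stated in the sources used here. Groups and replicates came from the sample titles. No 2 arrays were identical. The platform annotation gave 34945 of 45101 probe sets 1 gene symbol, 932 several and 9160 none, and 64 were controls; 34741 matched RefSeq GRCm38.p6. Probe sets with several genes were left out of the families, 7 of them from these symbols.

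A gene was represented by whichever probe set had the highest log2 mean, and was tested when above the array's 40th percentile in at least 3 of 9 arrays (14122 of 18193 genes). Log2(signal + 16) was fitted with limma 3.58.1 in R 4.3.3, with 1 mean per group over all 9 arrays and a trend on intensity; residual degrees of freedom were 6 and prior ones 9.09. Tests were two-sided, and p-values were adjusted by Benjamini-Hochberg over the genes tested. Arrays carry no read depth, so their number limits the precision; an exact permutation test of 3 against 3 cannot give a p below 0.1. The fit was tested on simulated data. The members, gene lists and alternatives were chosen with earlier results of these data known. Besides the called members, genes were named from a set list and from each family's tested members with the highest mean signal or largest difference. Not all of these are described: Gstm3, Gstm6, Gstt3, Mgst2, Aldh1a3 and Ephx2, for example, were left out, and none of them was called. Gsta1 and Akr1b3 of the set list had no probe set annotated to them alone. The others named were chosen after their values were seen. Promoters came from RefSeq for 76 of the 89 genes. Alternatives covered pseudocount, filter, normalization, probe set choice, trend, replicate block and each array left out.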

Additional observations from a re-analysis of the deposited data

How the results depend on the processing

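No called member changed direction under any alternative tried. Without the intensity trend 1 member fell in DNFB against vehicle, where Gsta3, Ephx3 and Sult2b1 lost their calls and Aldh1b1 gained one. After BAC, Aldh3a1 and Gsta2 lost theirs (limma adjusted p = 0.112 and 0.072) and Ugt8a gained one (0.0299). In DNFB against BAC 4 were higher, beside 0.97% of all genes, and Gsta4, Gstm1, Gstm5 and Gsto1 lost their calls. With only the 6 arrays compared, 7 members rose after DNFB, beside 6.08% of all genes. Without 1 array, between 3 and 5 members rose and between 1 and 3 fell after DNFB, between 1 and 4 fell after BAC, and in DNFB against BAC between 6 and 9 were higher and between 0 and 1 lower. Differences that had not passed changed sign: Mgst1 after DNFB was -0.042 with quantile normalization, and Aldh2 was -0.088 with the mean of probe sets. After BAC, Gsta4 was 0.057 with quantile normalization and Gsta3 -0.074 with arrays centred on the median. Without 1 array, Aldh3a1 after DNFB lay between -0.16 and 0.10, Aldh1a1 between -0.044 and 0.42, Gsta4 after BAC lay between -0.14 and 0.22, Gsta3 after BAC between -0.28 and 0.19, and Akr1b8 after BAC between -0.17 and 0.0088. The cause was not tested. Counts of members without overlap, added after the data were seen, were with median centring 10 higher in DNFB against vehicle (beside 11.7% of all genes) and 0 higher in BAC against vehicle (beside 10.4%). In DNFB against BAC they were 1 lower with quantile normalization (beside 10.8%) and 0 with median centring (beside 7.92%). Over all genes, leaving out the trend gave 601 higher and 601 lower calls in DNFB against vehicle, and 137 higher and 265 lower in DNFB against BAC.

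Replicate numbers are shared by the groups, and deviations of same-numbered arrays correlated between -0.122 and 0.153. Arrays from the same mice need not share a number, so these values do not settle whether any arrays were paired. With a replicate block 4 members rose and 3 fell after DNFB, 0 rose and 4 fell after BAC, and 8 were higher and 0 lower in DNFB against BAC, the same genes as without it. With 3 arrays a group, a difference that did not pass is not shown to be absent, and dim probe sets could not be separated from background.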
